A study of Homo sapiens with 6 samples.

Results

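The SRSF, HNRNP and TRA2 genes encode 2 large families of RNA-binding splicing regulators. They were taken by symbol, as every gene whose name starts with SRSF and a digit or with HNRNP and a letter, plus TRA2A and TRA2B. That gave 44 genes of the 27968 in the deposited gene tables, namely 12 SRSF, 30 HNRNP and 2 TRA2 genes, and 155 of the 70006 RefSeq transcripts. Of the 44 genes, 39 are protein coding, 4 are pseudogenes and 1, HNRNPUL2-BSCL2, is a readthrough of neighbouring genes. RNA was sequenced from T47D, an established human luminal breast cancer line positive for the estrogen receptor, 48 hours after transfection of siRNA with RNAiMAX. One group of 3 libraries received a control siRNA and the other group of 3 siRNA directed at HOTAIR-N, one of the RNAs of the long noncoding gene HOTAIR. Whether that was a single siRNA or a pool is not stated in the labels. Both groups were grown in RPMI medium with serum. The 3 libraries of a group came from separate transfections of the one line.

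SR proteins bind exons through RNA recognition motifs and recruit the splicing machinery through a tail rich in arginine and serine, which SRPK and CLK kinases phosphorylate. The hnRNP proteins coat nascent transcripts and often work against the inclusion of an exon, besides roles in RNA export, stability and translation. Many genes of both families regulate their own output by splicing: a noncoding form of the transcript, made by including a so-called poison exon or by splicing in the 3′ UTR, carries a stop codon ahead of an exon junction and is degraded by nonsense-mediated decay.

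The expected counts of the 6 libraries summed to between 31777001 and 36707169. HOTAIR was at 16.2, 16.1 and 16.6 CPM (counts scaled to library size) in the control libraries and at 5.65, 5.63 and 5.68 CPM in the HOTAIR-N siRNA libraries, so the groups did not overlap. Its log2 fold change was -1.53 (SE 0.07, edgeR adjusted p = 2.1e-09). All 8 luminal markers looked at were expressed; 6 of them were lower with the HOTAIR-N siRNA, ESR1 and PGR among them, and 1, CDH1, was higher. Of 7 markers of other cell types, 5 did not pass the filter on low counts. COL1A1, at 26.9 to 31.1 CPM in the control libraries, and COL3A1, at under 0.9 CPM, passed it and were lower. Control replicate 2 and HOTAIR-N replicate 3 deviated from their groups in the same way (r = 0.64 over 11422 genes), and results without both libraries are given where they change a call.

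Transcripts of the splicing factors fell widely after the HOTAIR-N siRNA. Of the 44 genes, 36 passed the filter on low counts; 31 of these were lower, 0 were higher and 5 were not called at an edgeR adjusted p under 0.05. Over all 14919 genes tested, 34.8% were lower and 36.2% higher. Among the 6622 genes whose log2 CPM averaged 5 or more, 44.3% were lower and 31.4% higher, and of the 33 members in that range 29 were lower and 4 were not called. The median log2 fold change was -0.44 over the 36 members and 0.02 over all genes tested. In bulk RNA, fewer cells of a kind and less RNA per cell cannot be told apart.

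Most of the falls were moderate. Of the 31 lower members, 10 fell by more than 1.5-fold and 3 by more than 2-fold, while 5 fell by less than 1.2-fold. Over all genes tested, 15.1% were lower by more than 1.5-fold and 6.84% by more than 2-fold. The 3 control libraries lay above the 3 HOTAIR-N siRNA libraries without overlap for 31 members, and below them for 1, SRSF9; over all genes tested, 35.9% were lower and 37.5% higher without overlap. The members' share of all counts went from 1.14% ± 0.03 (SD, n = 3) to 0.90% ± 0.02 (n = 3). Summed in TPM, a level that also divides by transcript length, the members went from 7960 ± 221 to 5990 ± 163 (SD, n = 3 each), or 75.3% of control. The HNRNP sum was at 72.9% of control, the SRSF sum at 84.1% and the TRA2 sum at 79.4%.

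**Figure D1:**
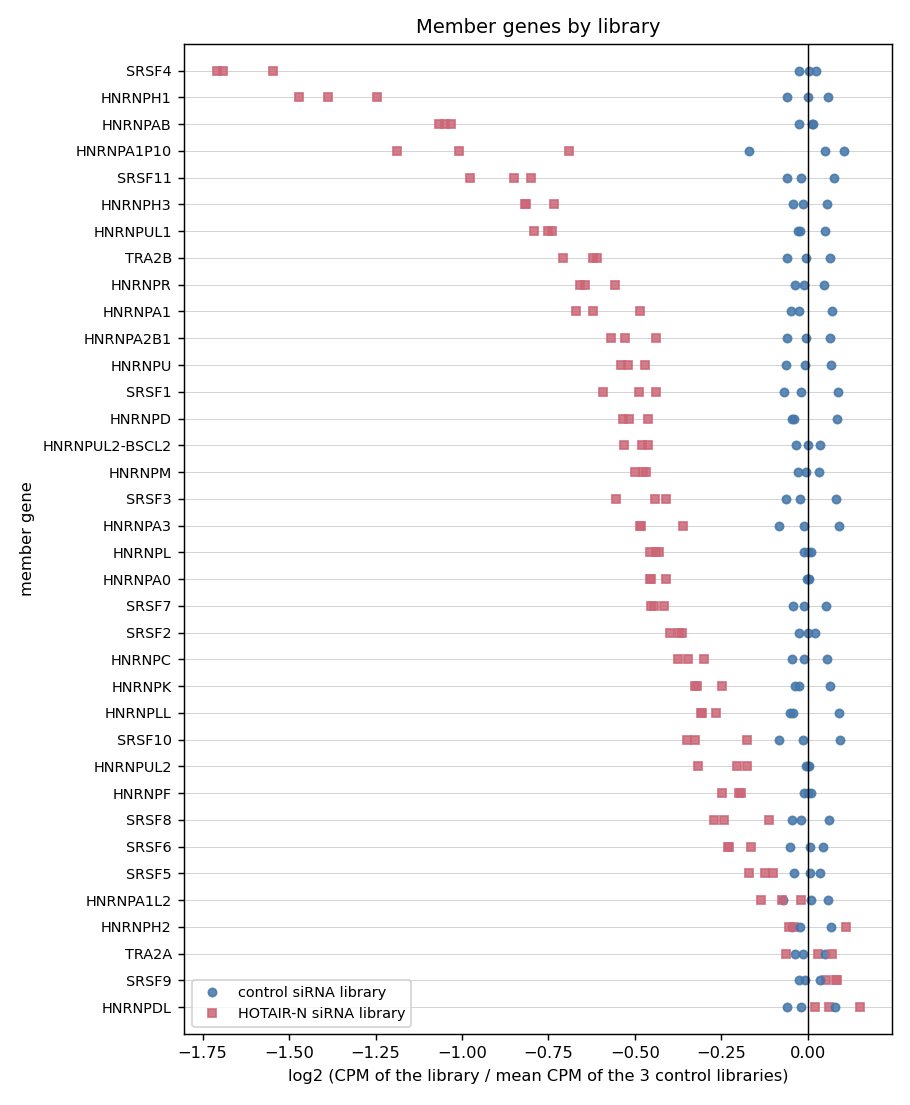
Level (CPM) of each of the 36 tested members in every library, as the log2 ratio to the mean of the 3 control libraries (circles, control siRNA; squares, HOTAIR-N siRNA), ordered by fold change. In 31 members all squares lie left of all circles, and SRSF9 is the one member with all squares to the right.

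**Figure D2:**
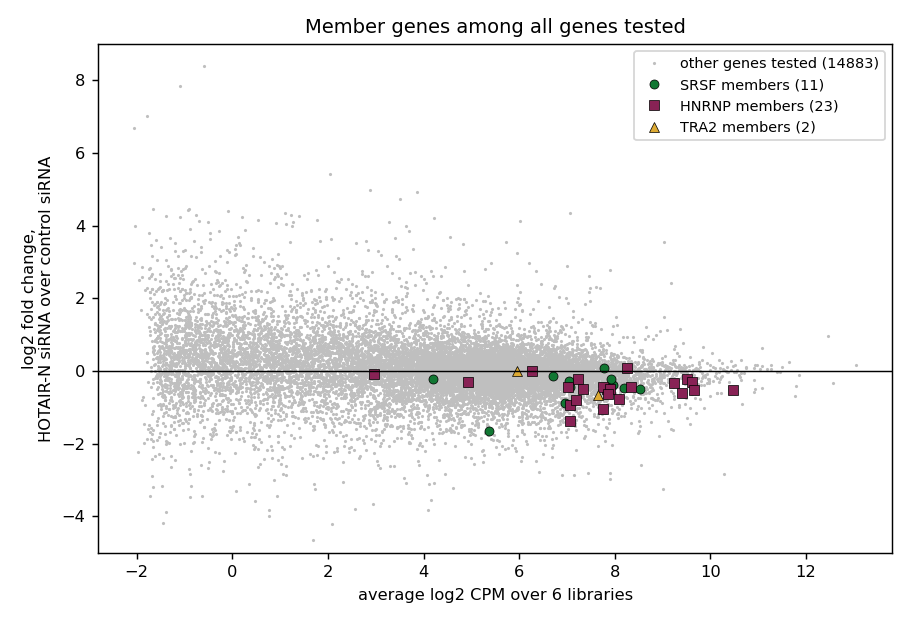
Log2 fold change of HOTAIR-N siRNA over control siRNA against average log2 CPM for all 14919 genes tested (grey), with the 11 SRSF, 23 HNRNP and 2 TRA2 members marked. The members lie mostly at high abundance and below 0, with a median of -0.44.

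Among the SR proteins, 10 of 11 tested genes were lower and SRSF9 was not called (median log2 fold change -0.38). SRSF4, a long-tailed SR protein also known as SRp75, fell the most of all members. It was at 61.4, 62.6 and 63.5 CPM in the control libraries and at 19.4, 19.1 and 21.4 CPM in the HOTAIR-N siRNA libraries. The groups lay far apart, and the log2 fold change was -1.65 (SE 0.06, edgeR adjusted p = 3.4e-10). SRSF11, an SR-related protein known as p54, was at 158.7, 169.5 and 154.4 CPM in control and at 81.8, 89.2 and 92.4 CPM with the HOTAIR-N siRNA. Every HOTAIR-N siRNA library lay below every control library (log2 fold change -0.87, SE 0.06, edgeR adjusted p = 3.9e-08).

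The SRSF gene with the most transcripts per length was SRSF9, a short SR protein, at 392, 404 and 393 TPM in control and 416, 428 and 432 TPM with the HOTAIR-N siRNA. Its counts did not pass the test (log2 fold change 0.07, SE 0.04, edgeR adjusted p = 0.11), although its 2 groups did not overlap. SRSF2, also called SC35 and a marker of nuclear speckles, came next at 261, 266 and 263 TPM in control and 198, 205 and 201 TPM with the HOTAIR-N siRNA. Its libraries did not overlap between groups, and its counts fell by 0.38 on the log2 scale (SE 0.04, edgeR adjusted p = 2.1e-06). SRSF3, the smallest SR protein, was at 204, 217 and 196 TPM in control and 142, 158 and 155 TPM with the HOTAIR-N siRNA. It fell by 0.47 on the log2 scale (SE 0.05, edgeR adjusted p = 4.6e-06).

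SRSF1, the founding SR protein and known as a proto-oncogene, was at 430.1, 463 and 416 CPM in control and at 289, 311 and 322 CPM with the HOTAIR-N siRNA. The groups did not overlap (log2 fold change -0.50, SE 0.05, edgeR adjusted p = 2.6e-06). SRSF7, which also serves mRNA export, fell by a like amount, with a log2 fold change of -0.44 (SE 0.04). The other 4 SRSF genes fell less: SRSF10 had a log2 fold change of -0.28, SRSF8 and SRSF6 of -0.21 each, and SRSF5 of -0.13 (edgeR adjusted p from 0.00075 to 0.02). In TPM SRSF10 did not fall, at 39.2 ± 2.02 in control and 40.6 ± 2.72 with the HOTAIR-N siRNA (SD, n = 3 each). The calls of SRSF5 and SRSF8 depend on the scaling: with library totals alone their log2 fold changes were -0.03 and -0.11 (edgeR adjusted p = 0.5 and 0.15), and SRSF9 was then called higher at 0.17 (edgeR adjusted p = 0.0012). Without HOTAIR-N replicate 1 both calls were also lost (edgeR adjusted p = 0.094 for SRSF5 and 0.062 for SRSF8), and that of SRSF5 also without HOTAIR-N replicate 2 or control replicate 3 (0.05 and 0.051).

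The TRA2 genes encode the human counterparts of fly Transformer-2, splicing activators that bind GA-rich exonic enhancers. TRA2B was at 244, 256 and 235 CPM in control and at 149.9, 159 and 161 CPM with the HOTAIR-N siRNA. All 3 HOTAIR-N siRNA libraries were below all control libraries (log2 fold change -0.65, SE 0.05, edgeR adjusted p = 1.2e-07). Its paralog TRA2A was at 59.98, 63.7 and 60.9 CPM in control and at 62.9, 58.9 and 64.5 CPM with the HOTAIR-N siRNA. Those groups overlapped, with a log2 fold change of 0.01 (SE 0.05, edgeR adjusted p = 0.83).

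Of the HNRNP genes, 20 of 23 tested were lower, 0 were higher and 3 were not called, with a median log2 fold change of -0.48. HNRNPH1, which binds runs of G, fell the most. It was at 183.7, 199.7 and 191.8 CPM in control and at 69.1, 73.2 and 80.8 CPM with the HOTAIR-N siRNA. These groups lay well apart (log2 fold change -1.37, SE 0.06, edgeR adjusted p = 1.5e-09). Its paralogs did not move alike: HNRNPH3 had a log2 fold change of -0.79 (SE 0.05), HNRNPF of -0.21 (SE 0.03) and HNRNPH2 of 0.01 (SE 0.06, edgeR adjusted p = 0.92).

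HNRNPAB, an A/B-type hnRNP, was at 286, 293 and 293.5 CPM in control and at 142, 140.4 and 138.9 CPM with the HOTAIR-N siRNA. The replicates of each group lay close together and the log2 fold change was -1.05 (SE 0.04, edgeR adjusted p = 4.1e-10). HNRNPUL1, a relative of the scaffold protein HNRNPU, had a log2 fold change of -0.76 (SE 0.04) and HNRNPR, which is close to SYNCRIP, one of -0.62 (SE 0.04).

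The most abundant member per length was HNRNPA1, a shuttling protein that binds splicing silencers. It was at 929.7, 1005 and 940.4 TPM in control and at 634, 652 and 724 TPM with the HOTAIR-N siRNA. The groups did not overlap (log2 fold change of counts -0.59, SE 0.05, edgeR adjusted p = 5.3e-07). Its processed pseudogene HNRNPA1P10 was at 156.8, 182 and 189.7 CPM in control and at 109.3, 77.4 and 87.6 CPM with the HOTAIR-N siRNA (log2 fold change -0.95, SE 0.11, edgeR adjusted p = 6.1e-06). The sequences of HNRNPA1, HNRNPA1P10 and HNRNPA1L2 are nearly identical, so how the counts were split between them is uncertain. HNRNPA1L2, at 7.23 to 8.27 CPM over all libraries, overlapped between the groups and was not called (edgeR adjusted p = 0.42).

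HNRNPA2B1, whose A2 and B1 proteins differ by a short insert, followed at 851, 921 and 874 TPM in control and 621, 607 and 666.5 TPM with the HOTAIR-N siRNA. Its groups did not overlap (log2 fold change of counts -0.51, SE 0.04, edgeR adjusted p = 4.1e-07). HNRNPF was the next most abundant, at 586, 576 and 583 TPM in control and 517, 518 and 503 TPM with the HOTAIR-N siRNA. Its groups did not overlap (log2 fold change of counts -0.21, SE 0.03, edgeR adjusted p = 0.00011).

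The other HNRNP genes that were lower lay between HNRNPU and HNRNPUL2. HNRNPU, a nuclear scaffold protein, had a log2 fold change of -0.51. HNRNPD, also called AUF1 and known for binding AU-rich elements, was at -0.50, HNRNPM at -0.48, and HNRNPA3, HNRNPL and HNRNPA0 were at -0.44 each. In TPM HNRNPA3 went from 152.1 ± 8.55 in control to 127.9 ± 7.27 with the HOTAIR-N siRNA (SD, n = 3 each). HNRNPC, which binds runs of U, was at -0.34, HNRNPK, which binds C-rich stretches, at -0.30, and HNRNPLL, a paralog of HNRNPL, at -0.29. HNRNPUL2 was at -0.23 and the readthrough HNRNPUL2-BSCL2 at -0.49, and these share the exons of HNRNPUL2, so the split of their counts is uncertain. HNRNPDL, a relative of HNRNPD, was at 284.9, 314 and 293 CPM in control and at 309.8, 301 and 330.1 CPM with the HOTAIR-N siRNA. Its groups overlapped (log2 fold change 0.08, SE 0.05, edgeR adjusted p = 0.17), and with library totals alone it was called higher at 0.18 (edgeR adjusted p = 0.0046); without control replicate 2 it was also called, at 0.11 (edgeR adjusted p = 0.036).

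The 8 members that were not tested had at most 5 counts in any library: SRSF12, HNRNPCL1, HNRNPCL2, HNRNPCL3, HNRNPCL4 and the pseudogenes HNRNPA1P33, HNRNPA3P1 and HNRNPKP3. HNRNPCL1 and HNRNPCL3 had 0 counts in all 6 libraries. A difference in these genes was not detectable at this depth.

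The files also give how a gene divides among its transcripts, each as a percent of the gene's transcripts per length (IsoPct). In the 30 members with more than one transcript, 130 transcripts were tested; 15 had a higher share and 12 a lower share at a limma adjusted p under 0.05, in 10 genes. Over all 27155 transcripts tested, 3.79% had a higher and 3.62% a lower share. In counts of single transcripts, of 134 member transcripts tested, 58 were lower, 7 higher and 69 not called at an edgeR adjusted p under 0.05, against 16.6% lower and 15.4% higher of all 32285. These 7 were NM_006625, NM_001191007 and NM_001191009 of SRSF10, NR_135167 of HNRNPA1, NR_036608 of SRSF2, NM_001330248 of HNRNPA3 and NM_001297620 of HNRNPR, named after their values were seen.

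The switch between forms of SRSF10 was large. SRSF10, also called SRp38, is an SR protein known as a splicing repressor when it is dephosphorylated. In GENCODE v29 its forms end in different last exons. The coding part runs to 262 codons in the long form NM_054016 and to 183 in the short form NM_006625. As deposited, the long forms have up to 7799 bases and NM_006625 has 4076. The last exon of the matched long form spans only chr1:23970364-23971439. The deposited long forms may therefore extend further and share 3′ sequence with the short forms, and how this bears on the shares was not tested. The coding parts of these last exons, from GENCODE v29 on GRCh38, are given with the stop codon in capitals because they show what the switch exchanges. They lie on the minus strand of chromosome 1, at chr1:23971142-23971439 for the long form NM_054016 and at chr1:23967663-23967723 for NM_006625.
SRSF10 long form: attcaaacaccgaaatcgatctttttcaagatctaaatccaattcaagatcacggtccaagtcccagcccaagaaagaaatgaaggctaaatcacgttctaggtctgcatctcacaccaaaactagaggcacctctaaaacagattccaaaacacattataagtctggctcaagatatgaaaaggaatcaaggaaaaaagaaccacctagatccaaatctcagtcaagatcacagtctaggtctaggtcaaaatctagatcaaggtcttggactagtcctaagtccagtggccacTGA
SRSF10 short form: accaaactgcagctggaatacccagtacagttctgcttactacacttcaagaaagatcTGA
The long tail holds 98 codons, of which 30 are for serine and 16 for arginine, and the short tail holds 19 codons, with 4 for serine and 1 for arginine.

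The 2 long-form accessions of SRSF10 together made up 75.9%, 76.0% and 71.1% of its transcripts in the control libraries and 38.9%, 41.4% and 40.9% with the HOTAIR-N siRNA. The 6 short-form accessions made up 8.40%, 7.42% and 12.3% in control and 49.6%, 47.7% and 47.2% with the HOTAIR-N siRNA. Neither pair of groups overlapped. This grouping by length was chosen after the values were seen and has no test of its own. Of the short forms, NM_006625 was at 0%, 0.54% and 2.17% in control and at 24.5%, 20.2% and 19.9% with the HOTAIR-N siRNA (log2 odds ratio 4.06, SE 0.46, limma adjusted p = 0.012), and NM_001191007 was at 3.89%, 2.48% and 3.26% against 11.1%, 12.7% and 12.0% (log2 odds ratio 1.76, SE 0.17, limma adjusted p = 0.0077).

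The long form NM_054016 is listed at 2 places in the tables. Its second copy went from 28.0%, 24.4% and 26.3% in control to 16.4%, 15.7% and 16.9% (log2 odds ratio -0.83, SE 0.09, limma adjusted p = 0.012), and with the copies summed it went from 59.1%, 57.9% and 54.2% to 29.7%, 33.5% and 30.1% (log2 odds ratio -1.53, SE 0.12, limma adjusted p = 0.0043). How reads were split between the copies is uncertain. As a share of counts, the second copy was not called (log2 odds ratio -0.50, limma adjusted p = 0.052). The first copy, NM_006625 and NM_001191007 were (limma adjusted p = 0.038, 0.007 and 0.0052). By edgeR's diffSpliceDGE, a comparison of each transcript with its gene in counts, the second copy was not called (adjusted p = 0.64). The first copy, NM_006625 and NM_001191007 again were (adjusted p = 0.0093, 1.9e-09 and 0.021). The gene's summed counts fell by 0.28 on the log2 scale, whereas its level per length was 39.2 ± 2.02 TPM in control and 40.6 ± 2.72 TPM with the HOTAIR-N siRNA (SD, n = 3 each). The call for NM_006625 held without control replicate 1 or 3 or HOTAIR-N replicate 3 and was lost, at a limma adjusted p of up to 0.052, without each of the other 3 libraries.

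HNRNPA2B1 shifted from its A2 toward its B1 form. The A2 form NM_002137 was at 87.5%, 87.2% and 87.5% in control and at 81.5%, 82.0% and 80.1% with the HOTAIR-N siRNA (log2 odds ratio -0.65, SE 0.05, limma adjusted p = 0.005). The B1 form NM_031243 took the rest, 12.5%, 12.8% and 12.5% in control and 18.5%, 18.1% and 19.9% with the HOTAIR-N siRNA. The control libraries lay within 0.4 percentage points of each other, and both calls held without any single library (limma adjusted p of at most 0.034). With edgeR's diffSpliceDGE, which compares a transcript with its gene in counts, the B1 form was called (adjusted p = 0.0014) and the A2 form was not (adjusted p = 1). The A2 form makes up most of the gene it is compared with, so this test can hardly set it apart. In counts, the A2 form fell by 0.61 on the log2 scale (SE 0.05, edgeR adjusted p = 0.00037) and the B1 form did not pass the test (log2 fold change 0.08, SE 0.09, edgeR adjusted p = 0.57). What sets B1 apart is an exon of 36 bases, coding and in frame, at chr7:26197831-26197866 on the minus strand of GRCh38, shown here whole in lower case.
HNRNPA2B1 B1 exon: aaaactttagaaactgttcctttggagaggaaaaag

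**Figure D3:**
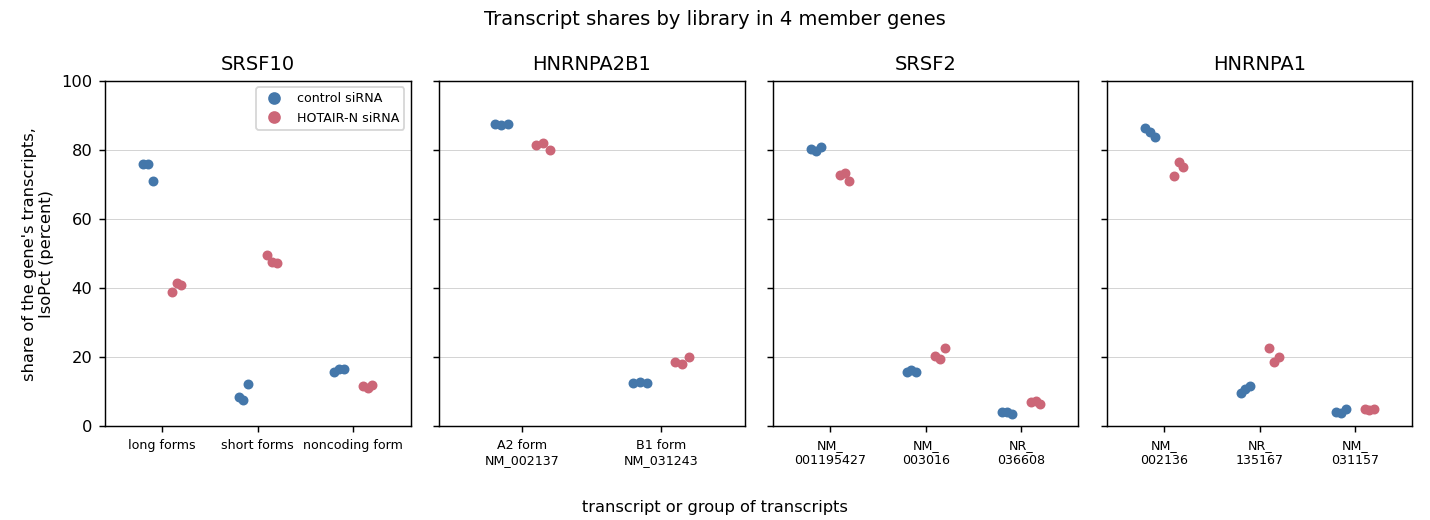
Share of each gene's transcripts (IsoPct, percent) by library for SRSF10 (long, short and noncoding forms), HNRNPA2B1, SRSF2 and HNRNPA1, with 3 control siRNA (blue) and 3 HOTAIR-N siRNA (red) libraries each. The SRSF10 long forms go from 71.1% to 76.0% in control down to 38.9% to 41.4%, and the short forms go up in their place.

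Several other members exchanged forms. SRSF2's main coding form NM_001195427 was at 80.2%, 79.8% and 80.8% in control and 72.7%, 73.5% and 71.0% with the HOTAIR-N siRNA (log2 odds ratio -0.61, SE 0.06, limma adjusted p = 0.0091), while its other coding form NM_003016 and its noncoding form rose. SRSF11's NM_001350615 was at 3.16%, 3.08% and 2.81% in control and 6.20%, 6.73% and 5.86% with the HOTAIR-N siRNA (log2 odds ratio 0.90, SE 0.11, limma adjusted p = 0.013). The most common SRSF11 form, NM_001350605, rose from 33.6% ± 2.76 to 48.4% ± 2.08 (SD, n = 3 each; limma adjusted p = 0.019).

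In HNRNPC the form NM_001077442 was estimated at 5.93%, 6.66% and 5.79% in control and at 0.02%, 0% and 0% with the HOTAIR-N siRNA (limma adjusted p = 0.00051). It is 3225 bases long, against 3212 bases for the main form NM_004500, which rose from 55.2% ± 3.02 to 63.7% ± 0.47 (SD, n = 3 each; limma adjusted p = 0.047). In HNRNPR, NM_001297622 was at 2.20%, 2.32% and 1.85% in control and listed at 0 in all 3 HOTAIR-N siRNA libraries (limma adjusted p = 0.0043), and the main form NM_005826 rose from 50.6% ± 1.62 to 60.7% ± 1.69 (SD, n = 3 each; limma adjusted p = 0.02). A share of 0 can be a limit of the estimate that divides reads among like transcripts, so no fold is given. Smaller exchanges passed the test in HNRNPF, between NM_001098205 (11.4% to 7.07%) and NM_001098207 (7.55% to 9.65%), and in HNRNPA3, where NM_001330248 rose from 17.8% to 29.8%.

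Without one library at a time, the calls for NM_001195427 of SRSF2, NM_001350615 of SRSF11, NM_001077442 of HNRNPC and NM_001297622 of HNRNPR held in all 6 fits. The call for NM_001350605 of SRSF11 held only without control replicate 3 or HOTAIR-N replicate 1 (limma adjusted p up to 0.07 otherwise), that for NM_005826 of HNRNPR only without control replicate 2 or HOTAIR-N replicate 3 (up to 0.071), that for NM_004500 of HNRNPC only without control replicate 2 (up to 0.14), and that for NM_001098205 of HNRNPF only without HOTAIR-N replicate 3 (up to 0.082). Those for NM_001098207 of HNRNPF, NM_001330248 of HNRNPA3 and NM_003016 of SRSF2 held in 0 of the 6 fits (limma adjusted p up to 0.1, 0.12 and 0.13). By diffSpliceDGE of edgeR, NM_001077442, NM_001297622 and NM_001098205 were called (adjusted p = 4.1e-10, 4e-09 and 0.00019), and the other transcripts named here were not, with adjusted p from 0.12 for NM_001330248 to 0.85 for NM_001195427. As the main form of SRSF2, NM_001195427 is compared with a gene that it mostly makes up, so this test can hardly set it apart.

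Noncoding transcripts, with accessions that start with NR_, could be tested in 10 members that also have coding forms. The noncoding share was higher in 4, lower in 1 and not called in 5 at a limma adjusted p under 0.05. Over all 1510 such genes, 5.63% had a higher and 4.7% a lower share. The 4 were HNRNPA1, SRSF1, SRSF2 and SRSF6. In the share fit of single transcripts, the noncoding forms of HNRNPA1 and SRSF2 were also called higher. Those of SRSF1 and SRSF6 were not called there, although the coding form of SRSF6 was called lower. With single libraries left out, this call for HNRNPA1 held in 4 of 6 fits (limma adjusted p up to 0.052). The calls for the SRSF2 noncoding and SRSF6 coding forms held in 0 of 6 (up to 0.073 and 0.14). Of these forms, diffSpliceDGE called only that of HNRNPA1 (adjusted p = 3.8e-05, against 0.49 for SRSF2). To see what the noncoding transcripts are, their accessions were matched to GENCODE v29. The matched transcripts can differ in length from the deposited forms. They have 1720 against 4722 bases in SRSF1, 1680 against 4014 in SRSF6 and 1234 against 1292 in HNRNPA1. The form of SRSF8 matched a protein-coding transcript. Classes, exons and stop codons given here and below are those of the matched transcripts. The noncoding forms of HNRNPA1, HNRNPDL, SRSF1, SRSF2, SRSF3 and SRSF6 matched transcripts of the class nonsense-mediated decay, and in all 6 genes the mean share was higher with the HOTAIR-N siRNA, with 4 called. Among all 531 genes with such a match, 45.2% were higher in mean, 5.65% were called higher and 6.21% lower, and the median log2 odds ratio was -0.06. This class was added after the shares had been seen. The only transcript of HNRNPUL2-BSCL2 also matched it. That symbol has no coding form, so no share could be tested, and its level was lower (log2 fold change -0.49).

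The noncoding form of SRSF6 shows how such a transcript is built. It has 7 exons where the coding form has 6. The added exon lies between coding exons at chr20:43459153-43459420 on the plus strand of GRCh38, is 268 bases long and brings an in-frame stop codon at its base 150, printed in capitals in the sequence from GENCODE v29, with 4 introns following the stop codon against 0 in the coding form.
SRSF6 added exon: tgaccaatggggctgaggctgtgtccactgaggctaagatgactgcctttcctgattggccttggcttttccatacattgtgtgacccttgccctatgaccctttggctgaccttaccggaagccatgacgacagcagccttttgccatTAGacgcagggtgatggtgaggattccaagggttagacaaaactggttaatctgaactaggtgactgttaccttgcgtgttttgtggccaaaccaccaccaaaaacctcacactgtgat
The SRSF6 noncoding share was 25.8%, 24.3% and 23.0% in control and 32.2%, 32.3% and 28.9% with the HOTAIR-N siRNA. The groups did not overlap (log2 odds ratio 0.47, SE 0.10, limma adjusted p = 0.041).

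In SRSF3 the noncoding form likewise gains an exon inside the coding part, of 456 bases. Its share was 9.73%, 9.41% and 9.78% in control and 12.6%, 11.7% and 10.4% with the HOTAIR-N siRNA. The libraries did not overlap but the difference was not called (log2 odds ratio 0.27, SE 0.09, limma adjusted p = 0.15). In SRSF2 and HNRNPDL the added exon lies in the 3′ UTR of the coding form. In SRSF1 both forms have 4 exons. The 1 exon of its noncoding form that overlaps no exon of the coding form lies outside the coding part. In SRSF1, SRSF2 and HNRNPDL, 1, 3 and 2 introns follow the stop codon of the noncoding forms. The coding forms have 0, 1 and 1. SRSF1's noncoding share was 2.46%, 2.75% and 4.62% in control and 7.73%, 6.73% and 7.34% with the HOTAIR-N siRNA. Every HOTAIR-N siRNA library lay above every control library (log2 odds ratio 1.04, SE 0.21, limma adjusted p = 0.04).

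SRSF2's noncoding share was 4.16%, 4.02% and 3.55% in control and 6.87%, 7.21% and 6.33% with the HOTAIR-N siRNA. The groups did not overlap (log2 odds ratio 0.71, SE 0.10, limma adjusted p = 0.014), and its noncoding form also rose in counts while the gene fell (log2 fold change 0.39, SE 0.10, edgeR adjusted p = 0.035). HNRNPDL's noncoding share was 3.34% ± 0.98 in control and 5.36% ± 1.10 with the HOTAIR-N siRNA (SD, n = 3 each), and the groups overlapped (limma adjusted p = 0.17).

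In percentage points HNRNPA1 rose the most of the 10 members, by 9.76; its log2 odds ratio was equal to that of SRSF1 at 2 decimals. Its noncoding form NR_135167 has 11 exons against 10 in the coding form NM_002136, none of them at a wholly new place, and 2 introns after the stop codon against 1. It made up 9.59%, 10.9% and 11.5% of the gene's transcripts in control and 22.5%, 18.6% and 20.1% with the HOTAIR-N siRNA. The groups lay apart (log2 odds ratio 1.04, SE 0.12, limma adjusted p = 0.0078), and its counts rose by 0.40 on the log2 scale (SE 0.11, edgeR adjusted p = 0.043) while NM_002136 fell by 0.72 (SE 0.07, edgeR adjusted p = 0.00085). The coding form's share went from 86.3%, 85.3% and 83.7% to 72.5%, 76.7% and 75.1%.

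The one member with a lower noncoding share was SRSF10, whose noncoding form matched a GENCODE transcript of the class processed transcript. It was at 15.8%, 16.6% and 16.7% in control and 11.5%, 10.98% and 11.9% with the HOTAIR-N siRNA. The groups did not overlap (log2 odds ratio -0.56, SE 0.08, limma adjusted p = 0.016). Taken as a share of counts instead of transcripts per length, the difference was not called (log2 odds ratio -0.21, limma adjusted p = 0.19). Of the members without a call, HNRNPA3 was at 38.6%, 36.1% and 28.2% in control and 24.1%, 22.7% and 18.5% with the HOTAIR-N siRNA (limma adjusted p = 0.068), SRSF8 overlapped between groups (limma adjusted p = 0.33), and SRSF11 was below 1.2% in every library (limma adjusted p = 0.76).

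These share calls rest on few libraries. Without one library at a time, the call held in all 6 fits for HNRNPA1, in 4 for SRSF2 (lost without HOTAIR-N replicate 1 or 2, limma adjusted p of up to 0.052) and in 2 for SRSF10 (without control replicate 1 or HOTAIR-N replicate 3). The call for SRSF1 held only without control replicate 3 (limma adjusted p = 0.019, and up to 0.12 otherwise), and that for SRSF6 only without HOTAIR-N replicate 3 (0.046, and up to 0.12 otherwise). HNRNPA3 was called lower without control replicate 3 (0.047). The direction was kept in each of these fits, which it had to be because the groups of these members did not overlap. Without both control replicate 2 and HOTAIR-N replicate 3, which leaves 2 libraries a group, no share of a member transcript and no noncoding share was called by limma, whereas 31 members were still lower at the gene level.

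**Figure D4:**
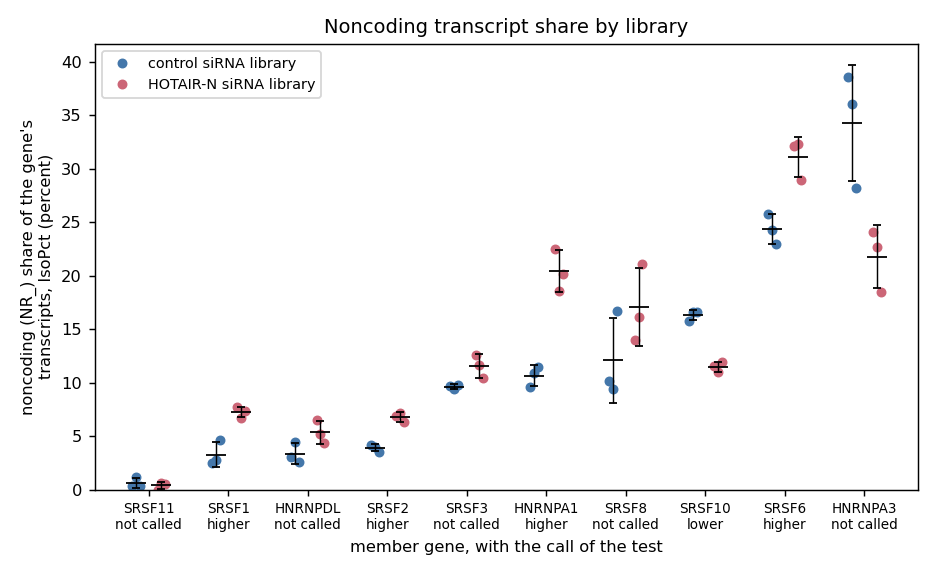
Noncoding (NR_) share of the transcripts of 10 members (IsoPct, percent) by library, with the mean and SD of 3 control siRNA (blue) and 3 HOTAIR-N siRNA (red) libraries and the call of the limma test under each name. HNRNPA1, SRSF1, SRSF2 and SRSF6 are higher with the HOTAIR-N siRNA and SRSF10 is lower.

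Genes that work with the members were taken from 4 lists. Of the hnRNP proteins with other symbols and their relatives, 17 were tested. Of these, 13 (76.5%) were lower, 1 was higher and 3 were not called, with a median log2 fold change of -0.40. The lower share was 34.8% of all genes tested and 44.3% of genes at a log2 CPM of 5 or more. ELAVL1, the stabilising RNA-binding protein HuR, was at 150.4, 149.4 and 148.5 CPM in control and 20.5, 20.5 and 24.3 CPM with the HOTAIR-N siRNA (log2 fold change -2.78, edgeR adjusted p = 3e-11). PTBP3 was at 259.9, 278 and 239 CPM in control and 70.6, 72.6 and 82.3 CPM with the HOTAIR-N siRNA (log2 fold change -1.78, edgeR adjusted p = 5.4e-10). PTBP1, the repressor that binds polypyrimidine tracts, was at 306, 278 and 299 CPM against 132, 135 and 126 CPM (log2 fold change -1.17, edgeR adjusted p = 8.4e-10). CELF1 was at 289, 295 and 285 CPM against 185, 189.5 and 190.1 CPM (log2 fold change -0.62, edgeR adjusted p = 2.8e-08). The 1 higher gene was PTBP2, the neuronal paralog of PTBP1, at 0.86 (edgeR adjusted p = 1e-05).

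Of the SR-related and SR-associated proteins, 27 were tested. Of these, 15 (55.6%) were lower, 3 were higher and 9 were not called, with a median of -0.16. The lower share was 34.8% of all genes tested and 44.3% of genes at a log2 CPM of 5 or more. RSRC1 was at 45.8, 45.7 and 48.1 CPM in control and 30.5, 31.6 and 32.2 CPM with the HOTAIR-N siRNA (log2 fold change -0.57), and LUC7L2 at 107.8, 115 and 107.1 against 75.9, 70.3 and 79.8 CPM (-0.55). RNPS1, an SR-related protein of the exon junction complex, was at 208, 191 and 205 against 155, 157 and 148.5 CPM (-0.39). CLASRP, which binds CLK4, was higher, at 16.2, 14.5 and 17.2 against 26.3, 26.9 and 24.5 CPM (0.70). With library totals alone, 7 genes of this list were higher and 9 lower.

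Of the kinases, importers and methyltransferases that act on SR and hnRNP proteins, 12 were tested; 5 (41.7%) were lower, 2 (16.7%) were higher and 5 were not called (median -0.08). The lower share is near the 34.8% of all genes tested and the 44.3% of genes at a log2 CPM of 5 or more. SRPK2, a cytoplasmic SR protein kinase, was at 54.3, 59.8 and 56.5 CPM in control and 31.2, 32.2 and 33.3 CPM with the HOTAIR-N siRNA (log2 fold change -0.82). CLK2, a nuclear SR protein kinase, was at 27.9, 26.5 and 27.6 against 42.5, 41.8 and 40.8 CPM (0.61). TNPO2, an import receptor, was at 135.9, 128 and 139 against 103, 105.4 and 99.2 CPM (-0.39), and the kinase PRPF4B at 195, 211 and 198 against 157.4, 157.5 and 169 CPM (-0.32). The other higher gene was TNPO1, at 0.13, and the count of higher genes ranged from 1 to 4 over the alternatives.

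Of the nonsense-mediated decay and exon junction factors, 17 were tested; 7 (41.2%) were higher, 6 (35.3%) lower and 4 not called (median 0.01), shares near the 36.2% higher and 34.8% lower of all genes tested. RBM8A, a core exon junction protein, was at 149.9, 152 and 145 CPM in control and 233, 233 and 241 CPM with the HOTAIR-N siRNA (log2 fold change 0.66, edgeR adjusted p = 2.8e-08). UPF1, the helicase at the centre of decay, was at 153.8, 137 and 152 against 88.8, 91.6 and 82.1 CPM (-0.75, edgeR adjusted p = 2.2e-07). SMG6, the endonuclease of the pathway, was at 32.8, 31.0 and 33.3 against 18.9, 19.1 and 18.1 CPM (-0.79, edgeR adjusted p = 1.4e-07), and MAGOHB at 15.4, 15.6 and 14.6 against 10.2, 10.2 and 10.49 CPM (-0.56, edgeR adjusted p = 9.6e-06). The part of these changes in the members' noncoding shares was not tested.

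**Figure D5:**
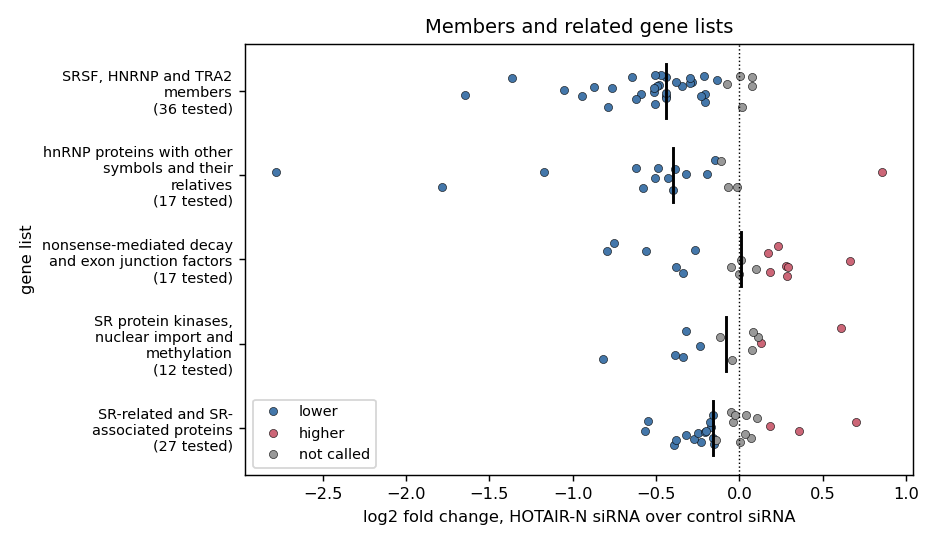
Log2 fold change (HOTAIR-N siRNA over control siRNA) of each tested gene among the 36 members and the 4 related lists, coloured by the edgeR call, with the median as a bar; points are spread vertically for legibility. The members and the other hnRNP proteins have medians of -0.44 and -0.40, and the decay factors lie on both sides of 0.

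The 7-mer GACCAAT was picked in earlier work on these fold changes as one whose carriers in the 3′ UTR were lower, so its presence is a description only. In the 3′ UTRs of the GENCODE v29 coding transcripts matched to their accessions, on the transcript strand, 5 of 34 members (14.7%) carry it, HNRNPA0, HNRNPA3, SRSF2, SRSF6 and TRA2B, against 6.05% of 13062 tested genes. These percentages take no account of 3′ UTR length. In HNRNPA0 the 7-mer starts at base 5192 of the matched 3′ UTR, whereas the deposited transcript has only 2967 bases. The median log2 fold change was -0.44 over the members with it and -0.44 over the 29 without it, and 24 of those 29 were lower.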

How the data were processed

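Per the labels' protocols, stranded total RNA libraries were made after removal of ribosomal RNA. The submitters' processing notes name STAR 2.6.0c, RSEM 1.3.0 and hg19. Their strand setting was not given in the sources used here; members that overlap other genes on the opposite strand are uncertain. Per the file headers, the deposited tables hold RSEM expected counts, TPM and FPKM per gene and transcript, and the share of a transcript in its gene as a percent (IsoPct); FPKM were not used.

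Expected counts were rounded, filtered with filterByExpr (minimum count 10, minimum total 15), scaled by TMM and tested across all genes or transcripts with edgeR 4.0.16's quasi-likelihood test (R 4.3.3). CPM are TMM-scaled. Shares, with an offset of 1 percentage point, were tested as log2 odds with limma 3.58.1 over transcripts of tested genes with a mean expected count of at least 10; noncoding shares sum a gene's NR_ transcripts. All p-values were adjusted by Benjamini-Hochberg over the whole table at 0.05, and n = 3 libraries a group. DESeq2 1.42.0 was an alternative. Transcripts were matched to GENCODE v29 (GRCh38) by accession, and no coordinates of hg19 are given.

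The members and lists were chosen with earlier results of these data known. Values are given for every library for HOTAIR, the 5 members with the largest falls (no member rose), the 3 with the highest control TPM in each family, TRA2A, TRA2B, members with a called noncoding share, the 5 transcripts with the smallest p for a share in each direction, and the 4 genes with the smallest p of each list. The replicate numbers did not pair the libraries.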

Additional observations from a re-analysis of the deposited data

How the results depend on the processing

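The 31 lower members ranged from 29 to 31 when one library was left out, numbered 31 with DESeq2 and limma-voom, 29 with library totals or upper quartile scaling, and 23 against a fold of at least 1.2; library totals moved the median log2 fold change of all genes to 0.12 and that of the members to -0.34. Members called higher numbered 2 under both of those scalings and 0 to 1 without one library. In the kinase list, genes called higher numbered 1 with DESeq2 size factors, the DESeq2 test, no filter on low counts, the 1.2-fold test or the replicate block, 4 with library totals or upper quartile scaling, and 1 to 4 without one library; genes called lower numbered 2 against 1.2-fold. SR-related genes numbered 7 higher and 9 lower with library totals, and 4 lower against 1.2-fold. The decay factors numbered 1 higher against 1.2-fold.

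Transcript shares called numbered 5 higher and 6 lower with edgeR's diffSpliceDGE, and 5 to 7 higher and 6 to 8 lower without one library. Members with a called noncoding share numbered 1 to 3 higher and 0 to 1 lower without one library, 2 higher with a mean count of at least 1, 2 lower with at least 50 and 0 lower as a share of counts. Without both control replicate 2 and HOTAIR-N replicate 3, all of these share counts were 0 and transcripts higher in abundance numbered 4. Every share value that was called had the same sign in each alternative fitted, 428 values in all. Where the groups do not overlap, leaving out libraries cannot change the sign. This number is therefore no measure of how firm the calls are. Transcripts higher in abundance numbered 11 with library totals or with 1 CPM in 3 libraries, 4 with no filter, and 3 to 6 without one library. The cause of these differences was not tested.

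Libraries with the same number did not deviate together (r = 0.23, -0.49 and -0.42). With the replicate block, 30 members were lower, no share was called (0 higher and 0 lower, for transcripts and for noncoding shares), and transcripts higher in abundance numbered 1. With 3 libraries a group, small shares and members under about 10 counts are beyond what this depth can compare.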
